A study of Mus musculus with 6 samples.

Results

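The miR-34 family was measured in libraries titled miRNA-seq from mouse hearts after ischemia and reperfusion (I/R) and from sham hearts. The family was taken as the 5 rows of the deposited table named mmu-miR-34a-5p, mmu-miR-34b-5p, mmu-miR-34b-3p, mmu-miR-34c-5p and mmu-miR-34c-3p, of 2009 rows in all, and every name was found. The species prefix is left out from here on. All hearts came from male mice and were perfused in isolation on a Langendorff system, which supplies the heart through the aorta and leaves it without circulating blood. The 3 I/R hearts were stopped with cardioplegia for 30 min and reperfused for 1 h, whereas the 3 sham hearts were perfused and kept beating. No source used here gives strain or age. The labels number the libraries of each group as biological replicates 1 to 3. The libraries held 7874103 to 9197869 reads on listed names, and levels are given as reads per 1000000 such reads (RPM).

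miRNAs are short RNAs that guide Argonaute proteins to partly complementary mRNAs, which are then repressed. The seed, bases 2 to 8 from the 5′ end, is the main determinant of which mRNAs are bound. The miR-34 genes are direct transcriptional targets of the tumour suppressor p53, and their 5p arms, miR-34c-5p included, share one seed and repress mRNAs for cell cycle and survival proteins such as Bcl2, Ccnd1 and the deacetylase Sirt1. In heart, miR-34a is known for its increase with age and after infarction, where it promotes cardiomyocyte death and represses the phosphatase regulator Ppp1r10 (PNUTS). miR-34b and miR-34c come from one shared primary transcript and are best known from testis and from multiciliated epithelium, where the related miR-449 genes are also active.

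The sequences below are shown because the seed defines the family and because the arms of one hairpin differ widely in level. They are RefSeq mature sequences (GRCm38.p6), written 5′ to 3′ with the seed in capitals, and 4 of the 5 members were matched.
miR-34a-5p: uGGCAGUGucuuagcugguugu
miR-34b-5p: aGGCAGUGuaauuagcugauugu
miR-34b-3p: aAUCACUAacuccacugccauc
miR-34c-3p: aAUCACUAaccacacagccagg
miR-449a-5p: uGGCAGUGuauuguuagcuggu
miR-449c-5p: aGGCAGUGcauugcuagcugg
miR-34a-5p and miR-34b-5p had the same bases from base 2 through base 9 and 11 of 22 positions alike when set side by side from the 5′ end. In a search of 1679 mature RefSeq sequences, only names in the deposited table were kept. Of these, miR-34a-5p, miR-34b-5p, miR-449a-5p and miR-449c-5p had the seed GGCAGUG, and miR-34b-3p and miR-34c-3p had the seed AUCACUA. These 3p arms had 17 of 22 positions alike.

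The family lies at 2 loci. The Mir34a hairpin is at chr4:150068454-150068555 on the plus strand (GRCm38.p6), and its last 17 bases overlap the exon of Gm37795, an unclassified transcript of the same strand (GENCODE M21, biotype TEC). The Mir34b hairpin, at chr9:51103562-51103645, and the Mir34c hairpin, at chr9:51103034-51103110, are both on the minus strand with 451 bases between them. Both lie within an intron of Btg4, a protein-coding gene of the opposite strand. The hairpins of miR-34a and miR-34b are given as RNA with the mature arms in capitals, the 5p arm first.
Mir34a: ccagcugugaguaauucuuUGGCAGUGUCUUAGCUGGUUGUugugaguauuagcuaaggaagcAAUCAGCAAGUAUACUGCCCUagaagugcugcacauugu
Mir34b: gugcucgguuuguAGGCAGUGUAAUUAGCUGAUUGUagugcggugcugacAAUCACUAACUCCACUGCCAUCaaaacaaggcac

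The libraries had the miRNA profile of heart muscle. The summed level of miR-1a-3p, miR-133a-3p, miR-208a-3p and miR-499-5p was 357828 to 383230 RPM in I/R hearts and 385458 to 389856 RPM in sham hearts. Nearly all of it was miR-1a-3p. In I/R and sham hearts, the 7 epithelial miRNAs summed to 68.8 to 83.0 and 66.7 to 70.4 RPM, the 5 leukocyte miRNAs to 119 to 122 and 109 to 144 RPM, and the 3 red blood cell miRNAs to 1.65 to 5.26 and 3.33 to 6.96 RPM. Most of the epithelial sum was miR-203-3p, with 53.8 to 70.9 RPM in single libraries. The 3 neuronal miRNAs summed to 3783 to 4515 RPM in I/R hearts and 2862 to 4388 RPM in sham hearts, nearly all of it miR-128-3p. Of the others, miR-9-5p was at 90.8, 144 and 146 RPM in I/R replicates 1 to 3, against 81.1, 132 and 96.3 RPM in sham replicates 1 to 3. The neuron-specific miR-124-3p was at 0 in every library. Libraries of one group differed by more than sampling noise, and a chi-square of their reads over names was 29.5 to 114 per degree of freedom.

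In these hearts the members differed widely in abundance. By mean level over the 6 libraries, miR-34c-5p ranked 157 among the 1259 names above 0 in any library. miR-34a-5p ranked 198, miR-34b-5p 384, miR-34b-3p 539 and miR-34c-3p 830. The members summed to 52.8, 62.2 and 70.1 RPM in I/R replicates 1 to 3, against 33.9, 58.8 and 60.5 RPM in sham replicates 1 to 3. Ranges of the groups overlapped, and the lowest sum was that of sham replicate 1. miR-34c-5p made up 66.5% to 72.8% of the sum in I/R hearts and 53.8% to 69.2% in sham hearts, and miR-34a-5p most of the rest.

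**Figure D1:**
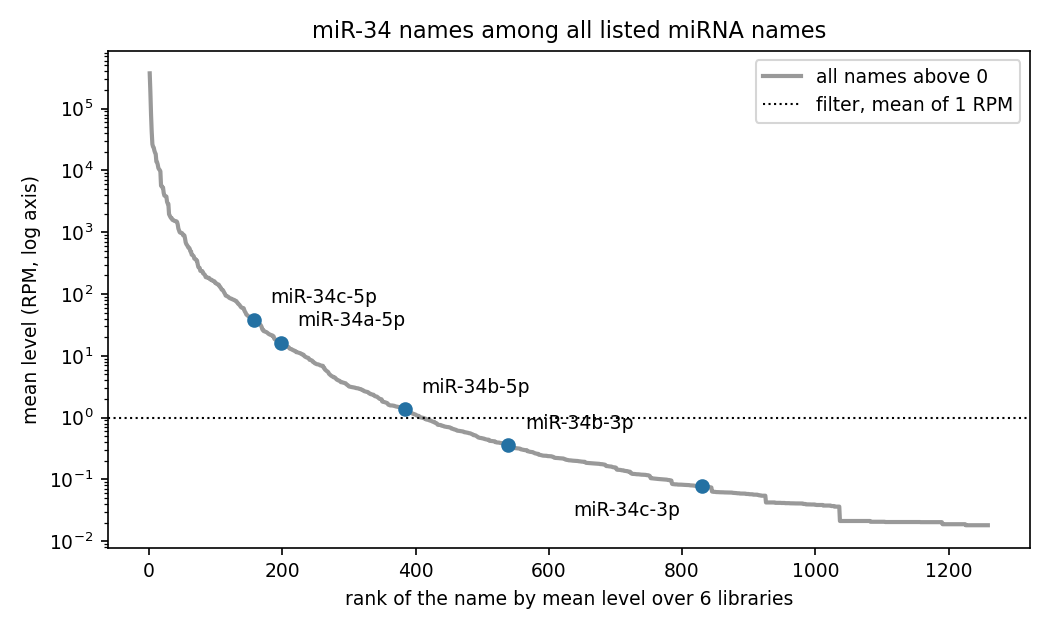
Mean level over 6 libraries (RPM, log axis) of every name above 0 against its rank, with the 5 miR-34 names as blue points and the 1 RPM filter as a dotted line. miR-34c-5p (rank 157), miR-34a-5p (rank 198) and miR-34b-5p (rank 384) lie above the line, and miR-34b-3p and miR-34c-3p lie below it.

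Changes between I/R and sham hearts were tested with limma on log2(RPM + 1) over the 409 names that averaged 1 RPM or more and were above 0 in 3 or more libraries. The added 1 RPM shrinks the fold changes of scarce names. Of the 5 members, 3 passed this filter (miR-34c-5p, miR-34a-5p and miR-34b-5p) and 2 did not (miR-34b-3p and miR-34c-3p). None of the 3 passed the threshold of 0.05 on the Benjamini-Hochberg adjusted p, and none had groups that did not overlap. Over all 409 names 0% passed in limma, and 29 higher and 1 lower names had an unadjusted p under 0.05 (7.33%). With TMM scaling that split was 11 higher and 13 lower. edgeR called 0 names and DESeq2 called 2, and limma with a block for the replicate number called 4 (0.978%), in no case a member of the family. For 15.2% of the names the ranges of I/R and sham hearts were separate. The median log2 fold change of all names was 0.10 and moved to -0.01 with TMM scaling.

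miR-34c-5p, the most abundant member, varied between hearts by far more than counting error. Its level was 35.1, 44.5 and 51.1 RPM in I/R replicates 1 to 3, from 288, 364 and 402 reads, against 18.3, 39.1 and 41.9 RPM in sham replicates 1 to 3, from 168, 346 and 339 reads. Sham replicate 1 stood below the other libraries, and the remaining sham hearts lay within the range of the I/R hearts. The counting interval of sham replicate 1 (95% exact Poisson interval, 15.6 to 21.2 RPM) did not reach that of I/R replicate 1, the next lowest (31.2 to 39.4 RPM). Means were 43.6 ± 8.0 RPM in I/R and 33.1 ± 12.9 RPM in sham hearts (SD, n = 3 each). The limma log2 fold change was 0.46 (SE 0.29, 95% interval -0.21 to 1.12, adjusted p = 0.661), the 22nd highest of the 409 names. Without sham replicate 1 it was 0.09 (limma adjusted p = 0.875).

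miR-34a-5p, the member with the best known role in the heart, lay at nearly one level in all hearts. It was at 16.2, 16.0 and 16.6 RPM in I/R replicates 1 to 3, against 14.9, 17.5 and 16.4 RPM in sham replicates 1 to 3. All 3 I/R hearts lay inside the range of the sham hearts. Means were 16.3 ± 0.314 RPM in I/R and 16.3 ± 1.32 RPM in sham hearts (SD, n = 3 each). The limma log2 fold change was 0.00 (SE 0.13, 95% interval -0.30 to 0.31, adjusted p = 0.992), with a sign that turned under other scalings, to -0.10 with TMM. Its reads, 131 to 155 per library, differed from a constant share of the depth by a chi-square of 0.405 per degree of freedom. For miR-34c-5p the same value was 28.9. The median of the 88 names with means of 10 to 50 RPM was 4.06, and of these 88 names 6 had a value at least as high as that of miR-34c-5p (itself included) and 1, miR-34a-5p itself, had a value as low as that of miR-34a-5p.

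miR-34b-5p, the partner of miR-34c on their shared transcript, was scarce. It was at 1.10, 1.35 and 2.03 RPM in I/R replicates 1 to 3, from 9, 11 and 16 reads, against 0.435, 1.24 and 1.98 RPM in sham replicates 1 to 3, from 4, 11 and 16 reads. The groups overlapped, and sham replicate 1 was again the lowest. Means were 1.49 ± 0.484 RPM in I/R and 1.22 ± 0.771 RPM in sham hearts (SD, n = 3 each). The limma log2 fold change was 0.21 (SE 0.30, 95% interval -0.48 to 0.90, adjusted p = 0.806), and it depended on the pseudocount and on 1 library. It was 0.44 with 0.1 RPM and 0.04 with 10 RPM in place of 1 RPM, and -0.07 without sham replicate 1.

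**Figure D2:**
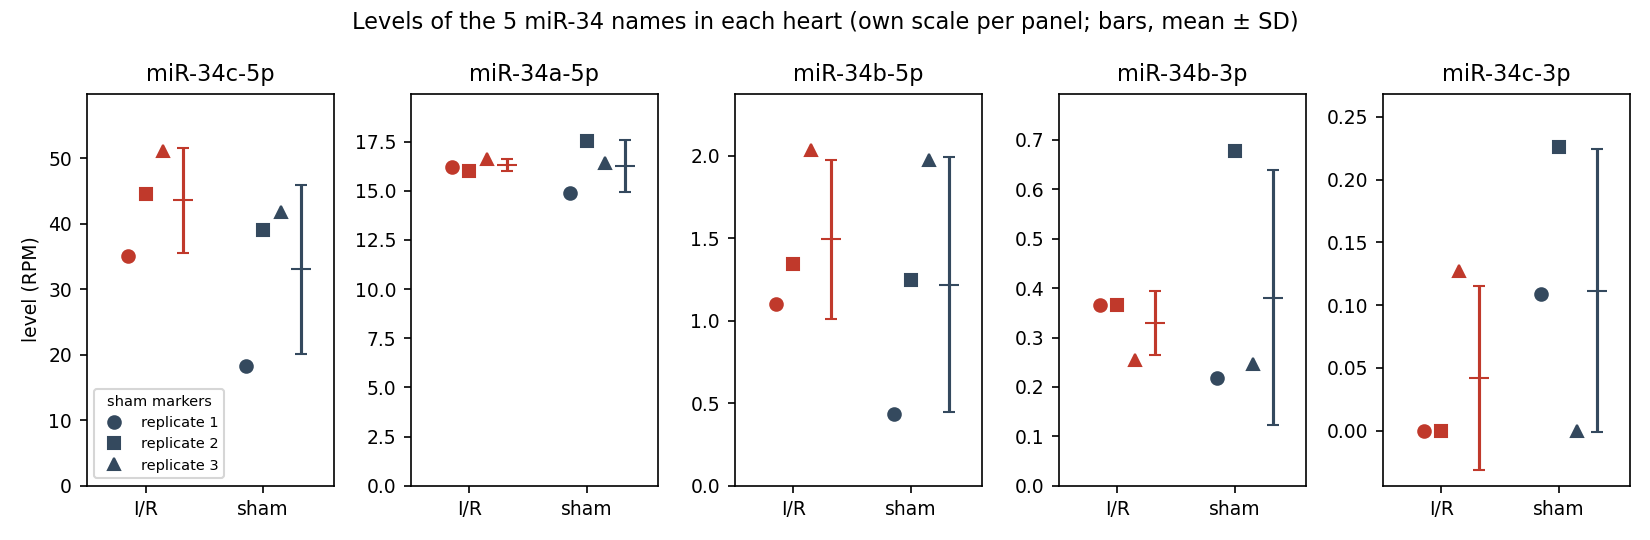
Level in RPM of each miR-34 name in the 3 I/R hearts (red) and 3 sham hearts (dark blue), each panel with its own scale. Marker shapes give the replicate number and bars the mean ± SD. miR-34c-5p and miR-34b-5p are lowest in sham replicate 1, at 18.3 and 0.435 RPM, and the I/R points of miR-34a-5p lie within 16.0 to 16.6 RPM.

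The 3p arms, which carry a different seed, were near the detection limit. miR-34b-3p had 3, 3 and 2 reads in I/R replicates 1 to 3, against 2, 6 and 2 reads in sham replicates 1 to 3. miR-34c-3p had 0, 0 and 1 read in I/R replicates 1 to 3, against 1, 2 and 0 reads in sham replicates 1 to 3. A count of 0 for miR-34c-3p allows up to 3 reads (a one-sided 95% limit), 0.366 to 0.370 RPM in the libraries with that count. Neither name was tested between groups, and their read counts overlapped. miR-34a-3p, the other arm of the miR-34a hairpin, had 1 read in I/R replicate 1 and 0 in the other libraries.

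The arms of one hairpin are usually kept unequally, and the miR-34 hairpins differed in this. The 5p arm held 1054 of 1055 reads of the miR-34c hairpin in I/R hearts (99.9%, 95% Wilson interval 99.5% to 99.98%) and 853 of 856 in sham hearts (99.6%, 99.0% to 99.9%). For the miR-34a hairpin it held 395 of 396 reads in I/R hearts and 425 of 425 in sham hearts. For the miR-34b hairpin it held 36 of 44 reads in I/R hearts (81.8%, 68.0% to 90.5%) and 31 of 41 in sham hearts (75.6%, 60.7% to 86.2%). Over all libraries the interval for miR-34b (69.0% to 86.2%) lay below those for miR-34a (99.3% to 99.98%) and miR-34c (99.5% to 99.9%). Such intervals cover counting error only, and the aligner's treatment of reads that match several names is not given. Among the 202 hairpins with both arms listed and at least 100 reads, the more abundant arm held a median of 98.7% of the reads, and in 57 (28.2%) it held at least as large a share as in miR-34c.

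The 5p shares of I/R and sham hearts overlapped for each hairpin. The 5p share of miR-34b was 75.0%, 78.6% and 88.9% in I/R replicates 1 to 3, against 66.7%, 64.7% and 88.9% in sham replicates 1 to 3 (difference 7.40 percentage points, two-sided exact permutation p = 0.6, adjusted p = 0.6). That difference moved with single libraries, and was 3.04 points without sham replicate 2, 3.37 without I/R replicate 3, 4.02 without sham replicate 1 and 15.1 without sham replicate 3. For miR-34c the difference was 0.306 percentage points (exact permutation p = 0.4, adjusted p = 0.6 over these 2 tests). With 3 against 3 hearts the smallest exact p is 0.1. None of the miR-34 hairpins had both arms above the filter, so none was among the 94 hairpins for which arm balance was tested in limma, where 0% passed and 6 had an unadjusted p under 0.05.

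**Figure D3:**
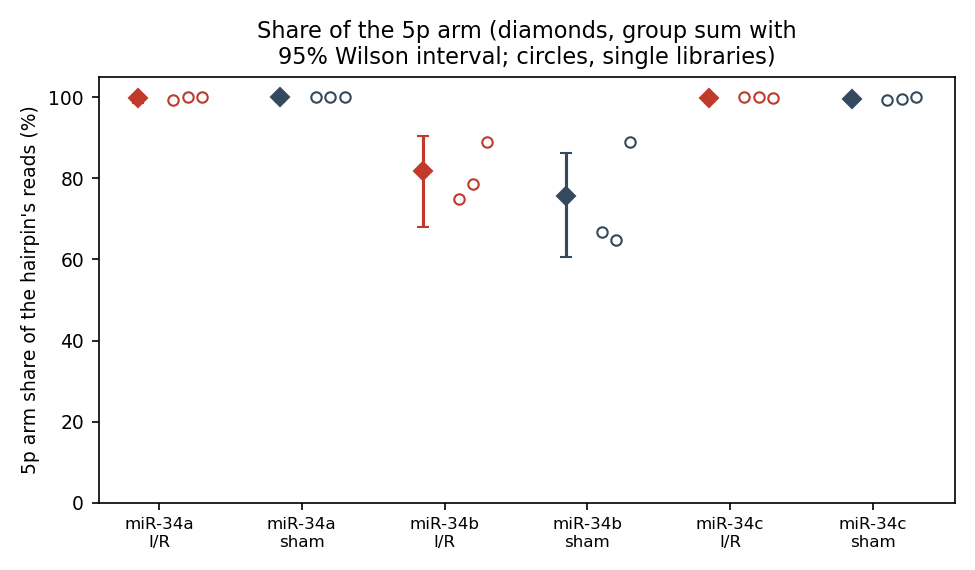
Share of the 5p arm (%) in the reads of the miR-34a, miR-34b and miR-34c hairpins in I/R (red) and sham (dark blue) hearts. Diamonds give group sums with 95% Wilson intervals and circles single libraries. The 5p share is above 99% for miR-34a and miR-34c, and 81.8% in I/R and 75.6% in sham hearts for miR-34b.

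The levels kept one order in every heart, with miR-34c-5p above miR-34a-5p, miR-34a-5p above miR-34b-5p, and miR-34b-5p above miR-34b-3p. The first neighbours were closest in sham replicate 1, with 18.3 and 14.9 RPM, where their counting intervals overlapped. Those of miR-34b-5p and miR-34b-3p overlapped in 4 of 6 libraries. miR-34b-3p had more reads than miR-34c-3p in each library, but their counting intervals overlapped in all 6. The ratio of miR-34c-5p to miR-34a-5p was 2.17, 2.78 and 3.07 in I/R replicates 1 to 3, against 1.23, 2.23 and 2.55 in sham replicates 1 to 3. The arms of miR-34b and miR-34c together stood at 2.26 to 3.21 times the level of miR-34a-5p in I/R hearts and 1.28 to 2.68 times in sham hearts. The ratio of miR-34c-5p to miR-34b-5p, from one transcript, was 25.1 to 33.1 in I/R hearts and 21.2 to 42.0 in sham hearts. That ratio rests on 4 to 16 reads of miR-34b-5p per library. The summed levels and ratios of the members were not tested.

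Across the 6 libraries, miR-34c-5p and miR-34b-5p varied alike. Their log2(RPM + 1) correlated at Pearson r = 0.93 (Spearman rho = 0.94), and at r = 0.57 without the 2 libraries farthest from the median of miR-34c-5p, so much of the relation rests on those libraries. miR-34c-5p and miR-34a-5p correlated at r = 0.75 (rho = 0.43), and at r = -0.21 without those 2 libraries. Correlations are descriptions over 6 libraries that share a depth scale and groups, and they have no p. Of 231 other names with a mean of at least 10 RPM, those most like miR-34c-5p were miR-214-5p (r = 0.98, rho = 0.83), miR-199b-3p (r = 0.98, rho = 1.00) and miR-199a-3p (r = 0.97, rho = 0.83). They are miRNAs abundant in fibroblasts, and the miR-199 names share one mature sequence. Without the 2 farthest libraries r was 0.64, 0.81 and 0.62.

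Sham replicate 1, lowest for miR-34c-5p, was also lowest for these names, as the choice of names by their correlation with miR-34c-5p favours. miR-214-5p was at 42.2, 44.0 and 48.9 RPM in I/R replicates 1 to 3, against 30.7, 44.2 and 46.7 RPM in sham replicates 1 to 3. miR-199a-3p was at 1587, 1744 and 1863 RPM in I/R replicates 1 to 3, against 1183, 1592 and 1563 RPM in sham replicates 1 to 3. Neither passed in limma (log2 fold change 0.17 and 0.27, adjusted p = 0.791 and 0.598). Sham replicate 1 was the lowest library for 114 of the 409 names (27.9%), more than any other library, with 9.3% to 22.0% for the others. The part of this library's composition in the low miR-34c-5p was not tested, and in whole-heart RNA fewer cells of a type and less RNA per cell cannot be told apart.

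**Figure D4:**
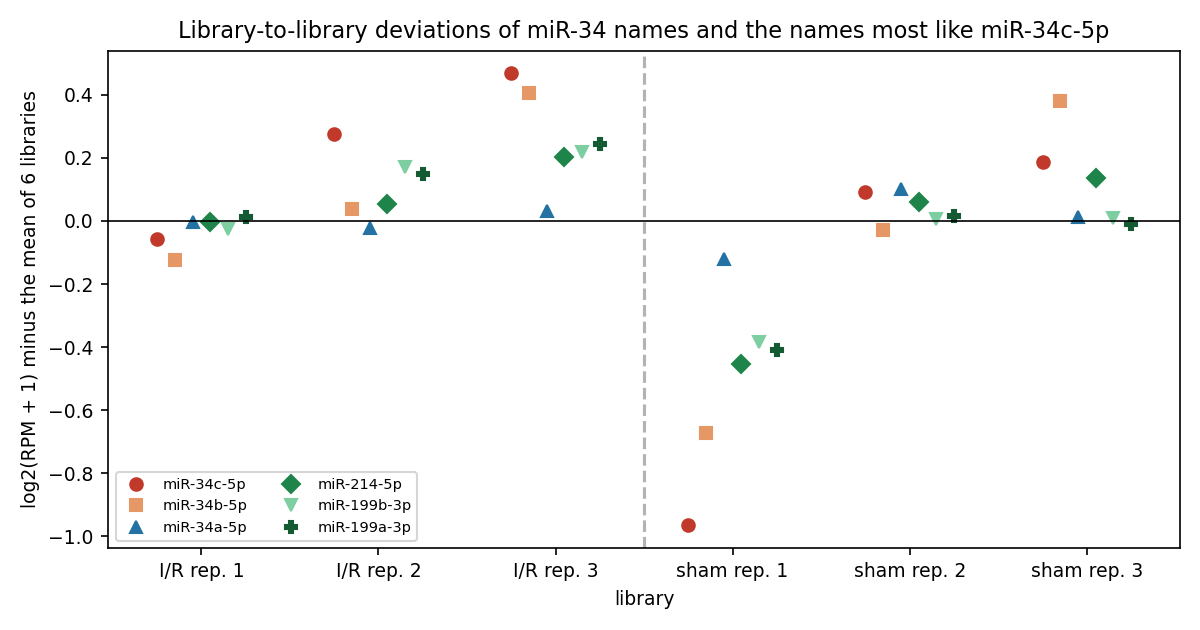
Deviation of log2(RPM + 1) from the mean of 6 libraries for 3 miR-34 names and for the 3 names most like miR-34c-5p, by library, with I/R hearts left of the dashed line and sham hearts right of it. In sham replicate 1 all 6 names lie below 0, miR-34c-5p lowest and miR-34a-5p nearest to 0.

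The names most like miR-34a-5p were miR-150-5p, a lymphocyte miRNA (r = 0.93, rho = 0.83), miR-425-5p (r = 0.91, rho = 0.83) and miR-411-3p (r = 0.86, rho = 0.89). Without the 2 libraries farthest from the median of miR-34a-5p, r was 0.35, 0.57 and 0.85. miR-150-5p was at 68.3, 72.9 and 74.9 RPM in I/R replicates 1 to 3, against 63.1, 83.2 and 70.3 RPM in sham replicates 1 to 3. It is 1 of the 5 leukocyte miRNAs, of which none was at 0, and their part in the level of miR-34a-5p was not tested. The spread of miR-34a-5p itself was within counting error, as given above.

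The miR-449 genes, whose miR-449a-5p and miR-449c-5p carry the seed of miR-34a-5p and which are active in multiciliated cells, were near 0. miR-449a-5p had 5, 3 and 1 read in I/R replicates 1 to 3, against 1 read in each sham replicate, and the Poisson intervals of all 6 libraries overlapped. miR-449c-5p had 2 reads in I/R replicate 2 and 0 elsewhere. miR-449b, miR-449a-3p and miR-449c-3p were at 0 in all libraries. Together miR-449a-5p, miR-449b and miR-449c-5p summed to 0.127 to 0.611 RPM in I/R hearts and 0.109 to 0.124 RPM in sham hearts, under the 35.1 to 51.1 and 18.3 to 41.9 RPM of miR-34c-5p in the same groups.

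Of all 409 names 0% passed in limma, so other miRNAs linked to p53 could not stand out by calls. The first list held 13 miRNAs reported to be raised by p53 at transcription or processing, of which 12 were in the table, 11 were tested and 0 passed. Of the 11, 7 had positive log2 fold changes, and the median was 0.08, beside 0.10 for all 409 names, and -0.03 with TMM scaling. Its most abundant members were miR-143-3p, a smooth muscle miRNA, with 44146 ± 4847 RPM in I/R and 40066 ± 5843 RPM in sham hearts, miR-22-3p with 12069 ± 285 and 12926 ± 517 RPM, and miR-192-5p with 3009 ± 290 and 2726 ± 96.0 RPM (SD, n = 3 each). Their limma log2 fold changes were 0.14, -0.10 and 0.14, with adjusted p from 0.661 to 0.678. The groups did not overlap for 2 of the 11 names, beside 15.2% of all 409 names. One was miR-22-3p, lower in I/R, and the other miR-15a-5p (chosen after its value was seen), with 3.42, 4.52 and 3.56 RPM in I/R replicates 1 to 3, against 2.94, 2.37 and 2.35 RPM in sham replicates 1 to 3 (limma log2 fold change 0.44, adjusted p = 0.598).

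The second list held 4 miRNAs reported to repress the p53 mRNA, all tested, and 0 passed, beside 0% of all names. miR-125b-5p was at 4153, 4157 and 4206 RPM in I/R replicates 1 to 3, against 3441, 3353 and 3832 RPM in sham replicates 1 to 3 (limma log2 fold change 0.24, SE 0.08, adjusted p = 0.598). miR-25-3p, from the miR-106b/25 cluster, was at 404 ± 17.4 RPM in I/R and 343 ± 9.51 RPM in sham hearts (SD, n = 3 each, limma log2 fold change 0.23, adjusted p = 0.598). The groups of these miRNAs did not overlap in RPM, 2 of 4 names beside 15.2% of all names. In limma 2 of the 4 had an unadjusted p under 0.05, beside 7.33% of all names, and 0 of the 4 with TMM scaling. miR-30d-5p was at 20428 ± 470 RPM in I/R and 21439 ± 1868 RPM in sham hearts, and overlapped (limma log2 fold change -0.07, adjusted p = 0.792). miR-504-5p overlapped too (limma log2 fold change -0.03, adjusted p = 0.964). The median of the list was 0.10, equal to that of all names, and -0.01 with TMM scaling.

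**Figure D5:**
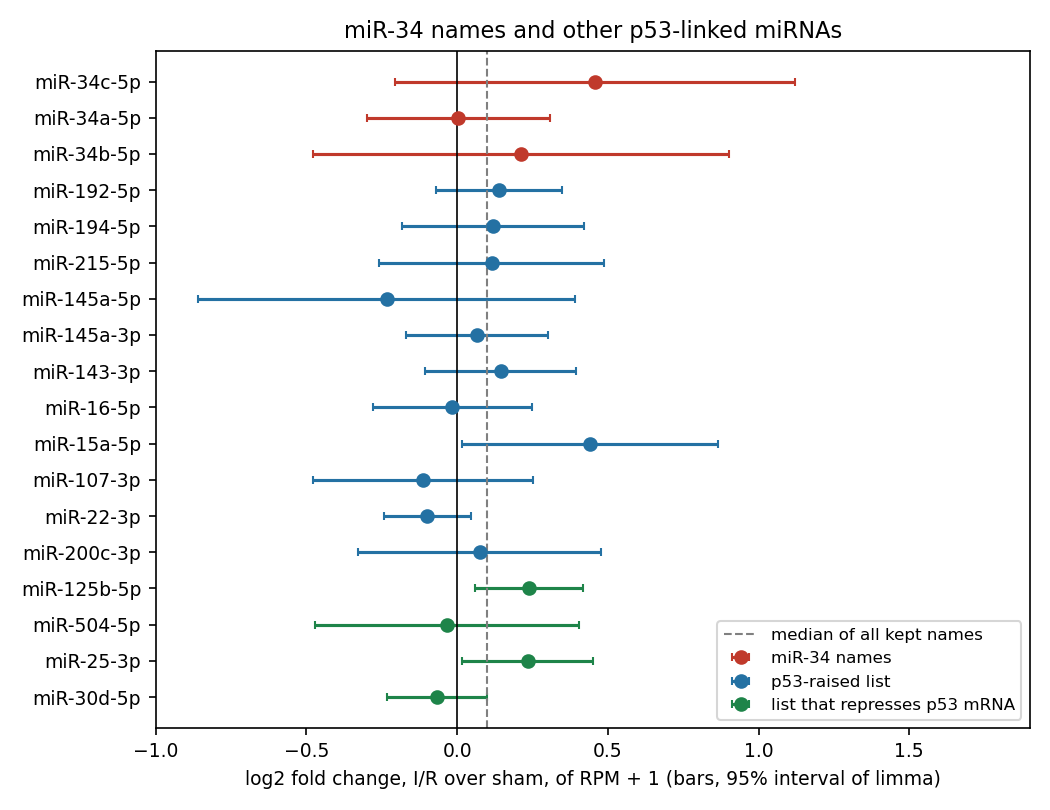
limma log2 fold change of RPM + 1, I/R over sham, with 95% intervals, for the 3 tested miR-34 names (red), 11 miRNAs raised by p53 (blue) and 4 that repress the p53 mRNA (green). The dashed line is the median of all 409 names, 0.10; the intervals of the miR-34 names include 0.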

How the data were processed

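The submitters' processing notes name fastp 0.23.0, bcl2fastq 2.19.1.403 and genome build mm10. Titles call the libraries miRNA-seq, but per the labels' protocols poly(A) mRNA kits were used. No source used here gives the aligner, miRNA annotation or treatment of multiply matching reads. The deposited signal values, called FPKM by the table's name, summed to one total in every library, and every value was a multiple of the smallest nonzero one in its library. They are reads scaled by depth and a constant length of 23 nt. Division by that step recovered whole reads for 100% of values (tolerance 0.01 reads), from which RPM was computed. The plan set limma on log values, with edgeR instead if the deposited file held whole-number counts. The deposited values were scaled, so the test on log values was kept, and edgeR on the recovered reads was run as an alternative.

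Tests used limma 3.58.1 with a trend in R 4.3.3, two-sided with Benjamini-Hochberg adjustment over 409 names, and exact permutation tests in SciPy 1.17.1. The latter, on 5p shares, were added after seeing the data. edgeR 4.0.16 and DESeq2 1.42.0 were alternatives on the recovered reads, beside scalings, filters, pseudocounts, a replicate block and left-out libraries. Scripts were tested on simulated data. Named were the members, names sharing their seed, the 3 most abundant tested members of each p53 list and the remaining member of the second list. Also named were the 3 names most like miR-34a-5p and miR-34c-5p by Pearson's r. Members and lists were chosen with earlier results of these data known. Whether libraries of a group came from separate hearts rests on the label of biological replicate.

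Replicate numbers 1 to 3 occur in both groups. I/R and sham libraries of the same number deviated together from their group means, with correlations of 0.14, 0.28 and 0.16, all above 0.1, and of -0.20 to 0.07 for different numbers. These correlations are low. Deviations from a group mean cancel within the group, which lowers the values for different numbers where those for the same number are positive. The labels do not say that the numbers pair the libraries, and these data do not settle it. All p-values in the report are from unpaired tests unless a block is named, and the block was run as an alternative.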

Additional observations from a re-analysis of the deposited data

How the results depend on the processing

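None of the 3 tested members (miR-34c-5p, miR-34a-5p and miR-34b-5p) passed the threshold under any alternative in which it was fitted. With the replicate number as a block, limma changed no call of a member. It gave adjusted p = 0.224 for miR-34c-5p (log2 fold change 0.46), 0.782 for miR-34b-5p (0.21) and 0.990 for miR-34a-5p (0.00). Against the sham library of the same number, miR-34c-5p was higher in I/R in 3 of 3 cases, by 0.91, 0.18 and 0.28 on the log2 scale. So was miR-34b-5p, by 0.55, 0.06 and 0.03, while the differences of miR-34a-5p were 0.12, -0.12 and 0.02. The share of all names higher in 3 of 3 was not counted, but 287 of 409 had a positive log2 fold change. In the block fit 48 names (11.7%) were higher with an unadjusted p under 0.05, miR-34c-5p among them. The log2 fold change of miR-34c-5p kept its sign under 16 of 16 alternatives. It was 0.35 to 0.39 under the scalings, 0.29 in edgeR and 0.31 in DESeq2, and 0.09 to 0.67 with 1 library left out, lowest without sham replicate 1. That of miR-34a-5p, near 0, reversed to -0.089 with median-ratio scaling, -0.10 with TMM, -0.063 with totals without the 10 most abundant names, -0.11 in edgeR and -0.10 in DESeq2, and ranged from -0.055 to 0.055 with 1 library left out. That of miR-34b-5p reversed only without sham replicate 1, with a range of -0.070 to 0.46 over left-out libraries, and was not tested at a filter of 10 RPM. The count of called names, 0, became 1 without a filter, 4 with the block, 2 in DESeq2, and 0 to 1 with 1 library left out. Of the hairpins tested for arm balance, none of them a miR-34 hairpin, 0 were called under 10 alternatives, and 0 names of the p53 lists were called under 16. The differences in 5p share, 7.40 points for miR-34b and 0.306 for miR-34c, ranged from 3.04 to 15.1 and from 0.205 to 0.50 with 1 library left out. The difference in the summed level, 10.7 RPM, ranged from 2.09 to 15.4 RPM with 1 library left out, lowest without sham replicate 1, and that in the ratio of the loci, 0.680, from 0.265 to 0.969. The causes were not tested. Depth limits what can be said of miR-34b-3p and miR-34c-3p, with 0 to 6 reads per library.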
